A study of Chlorocebus sabaeus with 6 samples.

Results

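The genes examined here encode enzymes and subunits that silence chromatin, and some that act against silencing. DNA methyltransferases, the Polycomb complexes PRC2 and PRC1, and the enzymes that methylate lysine 9 of histone H3 (H3K9) are among those that silence. So are the HP1 proteins that read this mark, and the HUSH complex. TET dioxygenases and the demethylases KDM6A and KDM6B act towards the removal of silencing marks. All these genes were taken from the deposited table by gene symbol, 48 genes of 18050, and each matched 1 row. Their mRNA was sequenced in COS7 cells, an SV40-immortalised kidney line of the African green monkey with fibroblast-like growth. Wild-type cells (WT) gave 3 samples, and cells labelled ATL2/3 knockout gave the other 3 (DKO). ATL2 and ATL3 encode atlastins, GTPases that fuse membranes of the endoplasmic reticulum. Both genotypes grew in DMEM with serum and antibiotics, and the labels name no treatment. Clones and cultures behind the replicates are not described in the labels, so the p-values cover only the spread among the samples at hand, and that spread may be technical. The comparison asks how transcript levels differ between the genotypes.

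DNA methylation is copied after replication by DNMT1, which is brought to the new strand by UHRF1, and is laid down afresh by DNMT3A and DNMT3B. TET enzymes oxidise the methyl group as a step towards its removal. PRC2 methylates lysine 27 of histone H3 (H3K27), and PRC1 ubiquitinates histone H2A through a RING protein paired with 1 of several PCGF proteins. The CBX subunits of canonical PRC1 bind methylated H3K27, whereas variant PRC1 complexes carry RYBP or YAF2 in their place. H3K9 methylation, HP1 and HUSH keep repeats and clusters of zinc finger genes silent. Each of the silencing systems is known for holding developmental, germline or imprinted genes off in somatic cells.

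Libraries held 14197344 to 15693049 estimated counts. ATL2 and ATL3 mRNA were lower in all 3 DKO samples, at 3.78 to 7.38 FPKM against 29.2 to 32.2 in WT for ATL2 and 3.5 to 5.93 against 34.7 to 37.3 for ATL3. FPKM scales the fragment count of a gene to its transcript length and to the library. DKO replicate 3 stood apart: it differed from the other DKO samples by a chi-square of 79.9 and 85.2 per gene, whereas DKO replicates 1 and 2 differed by 1.56 and the WT pairs by 1.87 to 3.68. Results are therefore given with and without it. Of 11 fibroblast markers in the table, 4 (COL1A2, COL3A1, THY1 and DCN) were under 0.1 FPKM in every sample, while VIM stood at 1533 ± 20.3 FPKM (SD, n = 3) in WT and at 1318 ± 51.4 in DKO. The summed level of the fibroblast markers was 3362 to 3452 FPKM in WT and 1526 to 1581 in DKO, with 2 called higher and 4 lower. FN1 went from 1838 to 207.4 FPKM on average, while PDGFRA went from 0.257 to 16.8 and PDGFRB from 0.587 to 5.35. The summed level of 9 epithelial markers was 709.5 to 802.9 in WT and 529 to 690.2 in DKO, mostly KRT8 and KRT18, with 2 called higher and 5 lower. CDH1 went from 4.84 to 0.0867 FPKM and CLDN4 from 48.2 to 0.823, while EPCAM went from 12.9 to 32.02. The 6 endothelial markers summed to at most 0.47 FPKM. The 7 leukocyte markers summed to 21.1 to 23.8 in WT and 24.0 to 36.9 in DKO, nearly all of it CD68 and LYZ, while PTPRC was at most 0.18. The part of these marker shifts in the results below was not tested.

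Of the 48 genes, 10 were higher and 7 lower in DKO, and 31 were not called (edgeR quasi-likelihood test, adjusted p below 0.05 over all 13094 genes tested). All 48 passed the filter on low counts. The 17 called genes make up 35.4% of the group (20.8% higher and 14.6% lower), beside a background of 45.5% of all genes called (23.3% higher and 22.2% lower). Changes past 2-fold were found in 5 genes, 3 higher and 2 lower, or 10.4% against 21.9% of all genes. The median log2 fold change of the group was -0.11 and that of all genes -0.01, and the median size, whatever the sign, was 0.33 against 0.47. FPKM values of the genotypes did not overlap for 26 of the 48 genes, against 63.2% of all genes tested. In bulk RNA, a change in the share of cells that express a gene and a change in RNA per cell cannot be told apart.

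**Figure D1:**
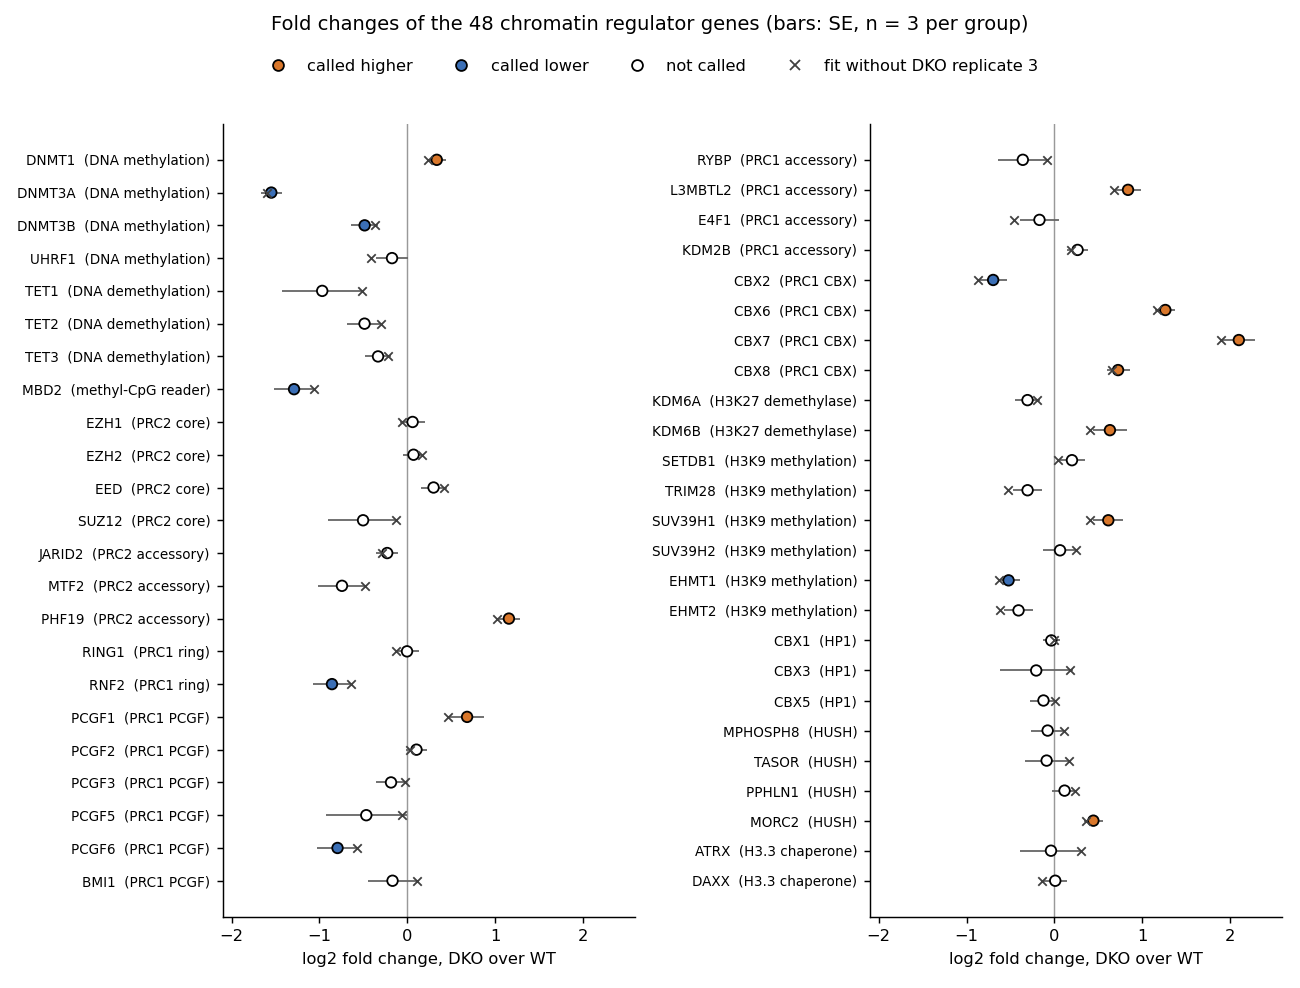
Log2 fold change (DKO over WT) of each of the 48 genes with its SE, arranged by role. Filled points passed the test with all 6 samples, and crosses give the fit without DKO replicate 3. CBX7 at 2.10 and DNMT3A at -1.55 lie farthest from 0.

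The call held in all 12 alternative fits for 8 genes: DNMT3A, MBD2, PHF19, CBX2, CBX6, CBX7, CBX8 and L3MBTL2. The other 9 called genes lost the call in at least 3 of these fits each, among them at least 1 that left out a WT sample. Without DKO replicate 3, 18 genes were higher and 18 lower, or 37.5% each, close to the background of 36% higher and 38.6% lower. In total that is 75% of the 48 genes and 74.6% of all genes. All 17 calls kept their direction in that fit, but their log2 fold changes moved. Most were smaller in size, such as 0.40 against 0.62 with all samples for SUV39H1 and 0.41 against 0.63 for KDM6B. PCGF1 had 0.47 against 0.68, L3MBTL2 0.68 against 0.84, RNF2 -0.64 against -0.86 and PCGF6 -0.57 against -0.79. Larger sizes were found for CBX2 (-0.87 against -0.70), EHMT1 (-0.64 against -0.52) and DNMT3A (-1.595 against -1.55).

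The maintenance methyltransferase gene DNMT1 was the most abundant DNA methyltransferase transcript, with 88.9, 94.1 and 91.1 FPKM in WT and 107, 107 and 121 in DKO. All DKO values lay above all WT values (log2 fold change 0.34, SE 0.10, edgeR adjusted p = 0.031). This call was lost without WT replicate 1, 2 or 3 (adjusted p = 0.083 to 0.13) and in DESeq2 (adjusted p = 0.069). It was also lost with the replicate number as a block (edgeR adjusted p = 0.094). UHRF1, the partner of DNMT1 at newly copied DNA, had 24.9, 27.2 and 26.7 FPKM in WT and 19.8, 19.5 and 28.3 in DKO. DKO replicate 3 lay above the WT samples and the other DKO samples below them, and UHRF1 was not called (log2 fold change -0.17, edgeR adjusted p = 0.48). Without DKO replicate 3 UHRF1 was lower (-0.41, edgeR adjusted p = 7.1e-09).

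Both de novo methyltransferase genes were lower in DKO. DNMT3A had 2.71, 2.83 and 2.92 FPKM in WT and 1.05, 0.98 and 1.34 in DKO. These groups were far apart, and the DKO level was 2.93-fold lower (log2 fold change -1.55, SE 0.12, edgeR adjusted p = 8.7e-05), with adjusted p-values of at most 0.0021 in the alternative fits. DNMT3B had 6.61, 6.55 and 6.03 FPKM in WT and 5.16, 4.78 and 3.63 in DKO. The groups again did not overlap, and the change was smaller (log2 fold change -0.49, SE 0.15, edgeR adjusted p = 0.035). The DNMT3B call was lost without WT replicate 1, 2 or 3 or DKO replicate 2 (adjusted p = 0.068 to 0.12). Of the summed FPKM of the 3 DNMT genes, DNMT1 held 90.8 ± 0.288% in WT and 95.2 ± 0.798% in DKO, and DNMT3A 2.81 ± 0.0997% and 0.95 ± 0.1% (SD, n = 3; exact two-sided permutation p = 0.1 each, the smallest that 3 samples against 3 allow).

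**Figure D2:**
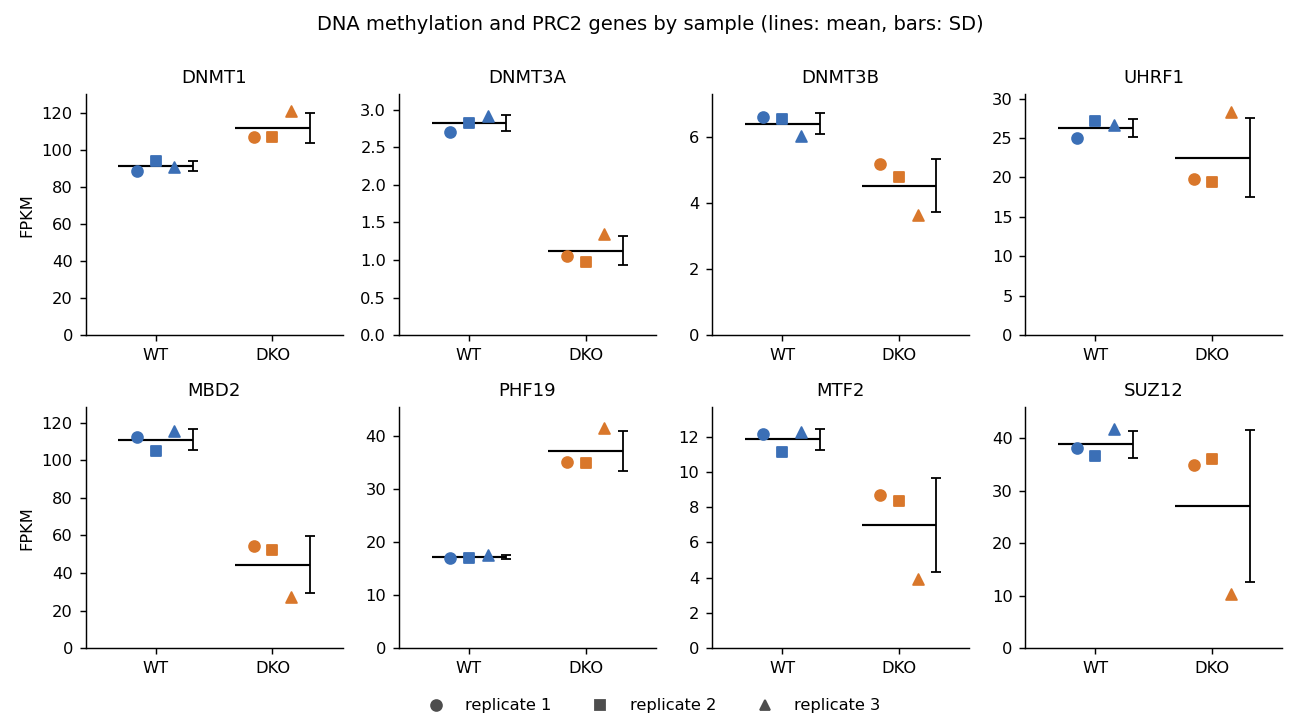
FPKM in each sample for 5 DNA methylation genes and 3 PRC2 genes, with the mean and SD of each genotype (n = 3). DNMT3A and MBD2 are lower and PHF19 is higher in every DKO sample, while DKO replicate 3 (triangle) falls to 10.4 FPKM for SUZ12.

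MBD2, a reader of methylated CpG that recruits the NuRD deacetylase complex, was abundant in WT with 112, 105 and 116 FPKM, and DKO samples had 54.4, 52.0 and 27. Every DKO value was below every WT value, with DKO replicate 3 the lowest, and the level was 2.44-fold lower (log2 fold change -1.29, SE 0.23, edgeR adjusted p = 0.0036). Without DKO replicate 3 the log2 fold change was -1.06 (edgeR adjusted p = 1.0e-23).

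The TET genes were expressed at low levels, and none was called. TET3 had 3.33 to 3.84 FPKM in WT and 2.22 to 3.26 in DKO, and TET2 had 1.79 to 2.08 and 0.94 to 1.65. TET1 was barely detected, with 20 to 22 counts per WT library and 17, 11 and 3 in DKO. The DKO values of all 3 genes lay below the WT values, and the log2 fold changes were -0.33 for TET3 (edgeR adjusted p = 0.11), -0.49 for TET2 (0.086) and -0.97 for TET1 (0.13). TET2 and TET3 were called lower without DKO replicate 3 (log2 fold changes of -0.30 and -0.21, edgeR adjusted p = 0.0053 and 0.0093), and TET1 without DKO replicate 1 (-1.54, edgeR adjusted p = 0.045).

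None of the 4 PRC2 core genes among the 48 was called. RBBP7 and RBBP4, histone-binding core subunits outside the 48 that were named after their values were seen, had log2 fold changes of -0.43 (edgeR adjusted p = 0.0049, called lower) and -0.31 (edgeR adjusted p = 0.11, and 0.00028 without DKO replicate 3). EZH2, the main catalytic subunit of dividing cells, had 38.6, 39.0 and 40.2 FPKM in WT and 45.6, 42.5 and 33.4 in DKO, so the groups overlapped (log2 fold change 0.07, SE 0.12). EZH1, its paralogue, had 3.20 to 3.61 FPKM in WT and 3.01 to 3.74 in DKO. EZH2 thus held 91.9 ± 0.375% of the summed EZH FPKM in WT and 92.1 ± 1.92% in DKO (exact two-sided permutation p = 1). EED, which reads methylated H3K27, had 11.5 to 12.6 FPKM in WT and 16.4, 16.5 and 11.2 in DKO. SUZ12, which holds the complex together, had 38.1, 36.7 and 41.8 in WT and 35.0, 36.1 and 10.4 in DKO. For EZH2, EED and SUZ12, DKO replicate 3 was the lowest sample of all 6. In the fit without it EZH2 was higher (0.17, edgeR adjusted p = 0.0039), EED higher (0.42, edgeR adjusted p = 1.1e-05) and SUZ12 slightly lower (-0.13, edgeR adjusted p = 0.018).

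The accessory subunits of PRC2 set where it acts, and here they moved unequally. PHF19, a Polycomb-like protein that helps PRC2 bind chromatin, had 17.0, 17.1 and 17.6 FPKM in WT and 35.0, 35.0 and 41.6 in DKO. It was 2.23-fold higher, with the groups well apart (log2 fold change 1.16, SE 0.13, edgeR adjusted p = 0.00042). MTF2, another Polycomb-like protein, had 12.2, 11.2 and 12.3 FPKM in WT and 8.68, 8.37 and 3.91 in DKO. All DKO values of MTF2 were below WT, and it just missed the threshold in edgeR (log2 fold change -0.74, SE 0.27, adjusted p = 0.058) but passed in DESeq2 (adjusted p = 0.023) and without DKO replicate 3 (-0.48, edgeR adjusted p = 7.1e-08). JARID2, a substrate-like activator of PRC2, had 3.06 to 3.48 FPKM in WT and 2.58 to 2.90 in DKO (log2 fold change -0.23, edgeR adjusted p = 0.17, and -0.29 with adjusted p = 0.0072 without DKO replicate 3). Outside the 48, the PRC2 partner gene EPOP rose from 4.19 ± 0.289 to 14.5 ± 1.41 FPKM (1.84 on the log2 scale, SE 0.14, edgeR adjusted p = 9.1e-05). PHF1 and AEBP2, named after their values were seen because they complete the accessory subunits, were not called (edgeR adjusted p = 0.99 and 0.81), though AEBP2 was higher without DKO replicate 3 (0.17, edgeR adjusted p = 0.030).

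All 4 Polycomb CBX genes of the group were called, 3 higher and 1 lower. CBX2, a chromobox protein known for compacting chromatin, had 13.6, 13.9 and 12.6 FPKM in WT and 7.21, 7.35 and 9.31 in DKO. It fell 1.62-fold (log2 fold change -0.70, SE 0.16, edgeR adjusted p = 0.011). CBX7, which binds methylated H3K27, had only 2.13, 2.43 and 2.12 FPKM in WT and 8.56, 8.06 and 11.2 in DKO. Its 4.30-fold increase was the largest change of the 48 genes (log2 fold change 2.10, SE 0.19, edgeR adjusted p = 0.00016).

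CBX6 had 13.7, 14.4 and 13.0 FPKM in WT and 29.7, 31.6 and 34.7 in DKO, 2.40-fold higher (log2 fold change 1.27, SE 0.12, edgeR adjusted p = 0.00017). CBX8 had 2.43, 2.66 and 2.51 FPKM in WT and 3.71, 4.29 and 4.22 in DKO (0.73, SE 0.13, edgeR adjusted p = 0.0039). None of the 4 had overlapping groups. Together they summed to 31.8 ± 1.65 FPKM in WT and 53.3 ± 5.42 in DKO. CBX2 and CBX6 were at about the same level in WT, with 42.0 ± 0.586% and 43.0 ± 0.0439% of that sum. In DKO, CBX2 held 14.9 ± 0.697% and CBX6 60.1 ± 1.63%, while CBX7 went from 7.00 ± 0.291% to 17.3 ± 1.58% and CBX8 held 7.97 ± 0.348% and 7.67 ± 0.639% (exact two-sided permutation p = 0.1 for the first 3, the smallest possible, and 0.5 for CBX8). By estimated counts in place of FPKM, the CBX8 shares of the groups did not overlap, and the difference (DKO minus WT) was -1.33 percentage points (exact two-sided permutation p = 0.1).

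**Figure D3:**
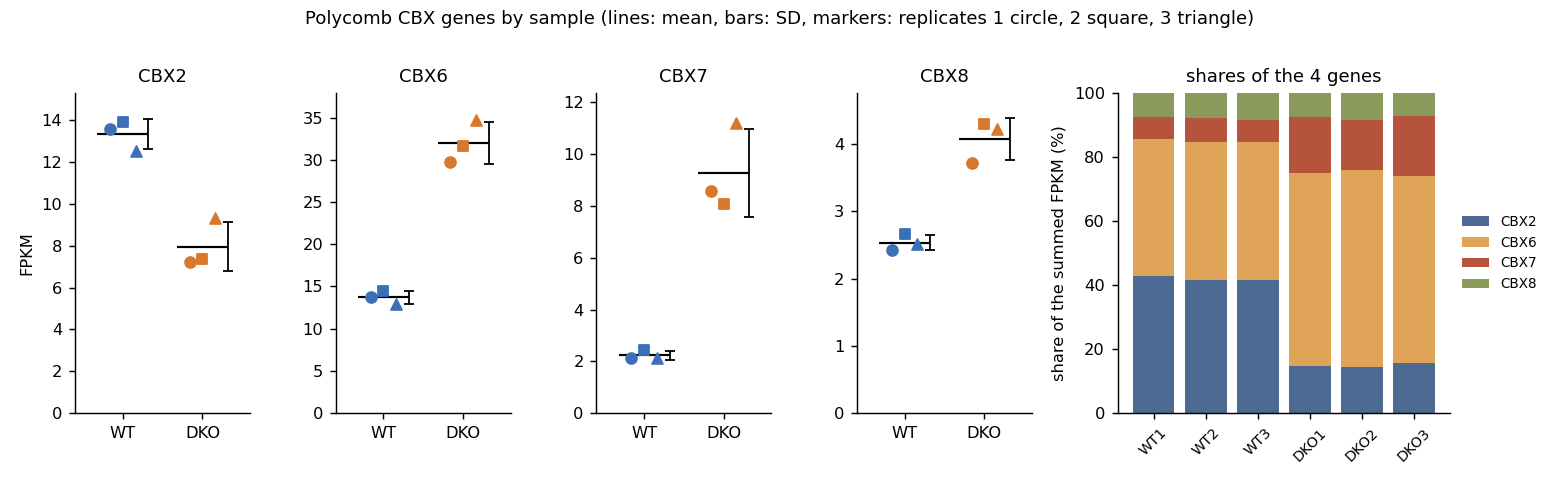
FPKM of CBX2, CBX6, CBX7 and CBX8 in each sample with mean and SD (n = 3), and the share of each in their summed FPKM per sample. CBX2 holds about 42.0% of the sum in WT and 14.9% in DKO.

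Of the PRC1 ubiquitin ligases, RING1 had 30.2 to 34.1 FPKM in WT and 29.1 to 33.7 in DKO and was not called (log2 fold change -0.0019, edgeR adjusted p = 0.99). RNF2, the paralogue of RING1, was lower, with 10.2, 9.80 and 10.5 FPKM in WT and 6.35, 6.71 and 3.49 in DKO (-0.86, SE 0.22, edgeR adjusted p = 0.017). The RNF2 groups did not overlap, but without WT replicate 1, 2 or 3 its adjusted p was 0.052 to 0.060. RNF2 held 24.3 ± 1.76% of the summed FPKM of both genes in WT and 15.4 ± 5.17% in DKO (exact two-sided permutation p = 0.1, the smallest possible), and 18.3% on average in DKO replicates 1 and 2.

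PCGF proteins decide which PRC1 complex forms, and of 6 PCGF genes 1 was higher, 1 lower and 4 not called. PCGF1, of the variant complex that carries KDM2B, had 11.9, 9.88 and 9.80 FPKM in WT and 14.2, 14.8 and 19.5 in DKO (0.68, SE 0.19, edgeR adjusted p = 0.025). PCGF6, of the variant complex PRC1.6, had 12.8, 12.3 and 13.8 in WT and 8.76, 8.72 and 4.51 in DKO (-0.79, SE 0.23, edgeR adjusted p = 0.028). The groups were separate for both genes, but the call of PCGF1 was lost without WT replicate 2 or 3 (adjusted p = 0.094 and 0.099) and that of PCGF6 without WT replicate 1, 2 or 3 (0.070 to 0.093). PCGF2, the most abundant of the 6, had 31.2 to 35.5 FPKM in WT and 32.7 to 35.7 in DKO. BMI1, its counterpart in canonical PRC1, had 24.3, 22.5 and 24.0 in WT and 24.9, 25.7 and 11.1 in DKO. PCGF3 (17.2 to 18.1 and 10.8 to 17.9) and PCGF5 (10.3, 10.6 and 11.6 in WT and 10.4, 10.4 and 2.6 in DKO) were likewise lowest in DKO replicate 3. None of these 4 was called with or without that sample.

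PRC1.6 is the variant complex that holds E-box and E2F sites of germline genes silent, and its subunit genes changed in both directions. The MBT-domain protein gene L3MBTL2 had 14.7, 15.5 and 14.5 FPKM in WT and 24.5, 23.0 and 29.9 in DKO, 1.79-fold higher without overlap (log2 fold change 0.84, SE 0.15, edgeR adjusted p = 0.0035). PCGF6 and RNF2, described above, were lower. CBX3, the HP1 protein of the complex, had 175, 165 and 183 in WT and 194, 201 and 52.8 in DKO.

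The DNA-binding scaffold gene MGA, which is outside the 48, had 7.57, 6.96 and 7.5 FPKM in WT and 0 counts in every DKO library, at least 395-fold lower against a floor of 3 counts per library (a bound that covers counting error only). Its partner MAX rose from 19.6 ± 0.122 to 45.9 ± 4.43 FPKM (1.27, SE 0.10, edgeR adjusted p = 9.8e-05), and E2F6 from 10.5 ± 0.470 to 25.1 ± 3.69 (1.26, SE 0.13, edgeR adjusted p = 0.00032). Other subunit genes were named after their values were seen. HDAC2 was higher (1.11, edgeR adjusted p = 0.0092), with 163, 166 and 79.6 FPKM in DKO against 60.8 to 67.1 in WT. Without DKO replicate 3 its log2 fold change was 1.36 (edgeR adjusted p = 1e-30). TFDP1 was also higher (0.47, edgeR adjusted p = 0.0030), and HDAC1 and WDR5 were not called (edgeR adjusted p = 0.97 and 0.71). MAX and HDAC2 serve other complexes as well.

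**Figure D4:**
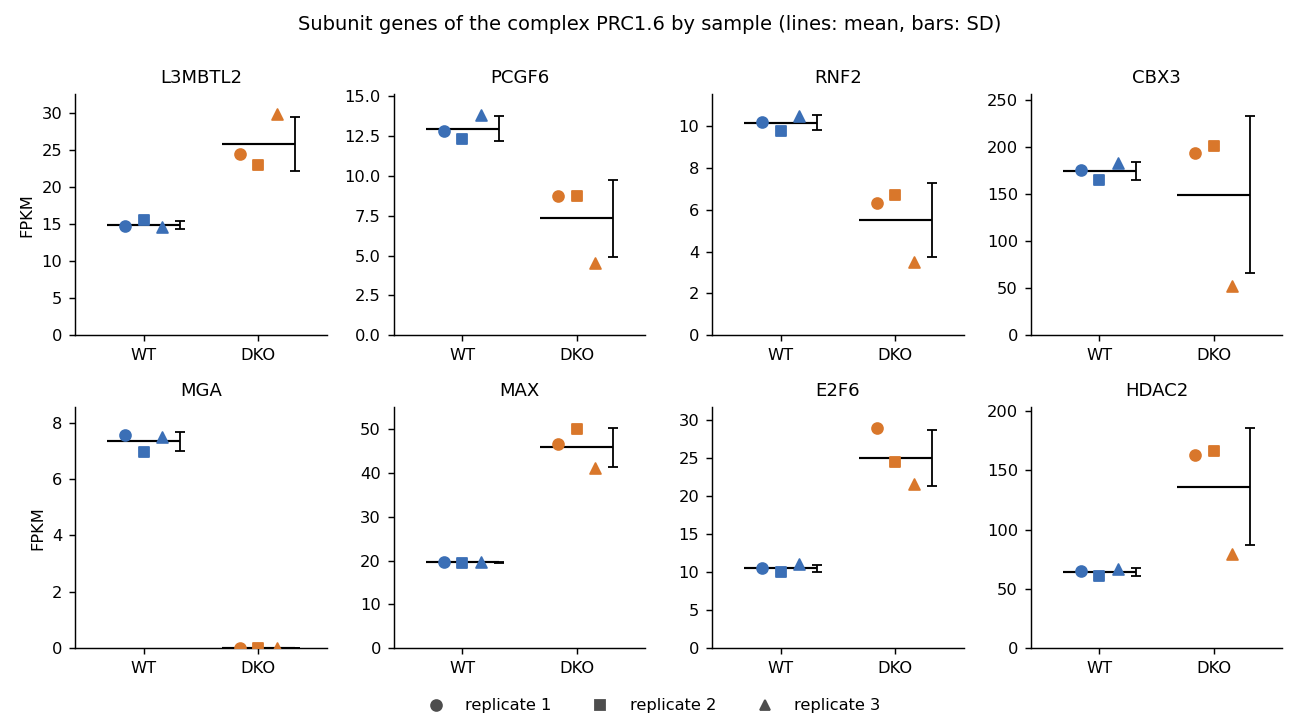
FPKM in each sample of 8 genes for subunits of PRC1.6, with the mean and SD of each genotype (n = 3). MGA is at 0 in all DKO samples, L3MBTL2, MAX and E2F6 are higher, and PCGF6 and RNF2 are lower.

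The other PRC1 partner genes among the 48 were not called. Outside the 48, BCOR, the corepressor of the PCGF1 complex, was lower (-0.39, SE 0.12, edgeR adjusted p = 0.035), and YAF2 was not called (-0.04, edgeR adjusted p = 0.95) but was higher without DKO replicate 3 (0.33, edgeR adjusted p = 0.0013); both were named after their values were seen. RYBP, which marks variant PRC1, had 6.50 to 7.07 FPKM in WT and 6.51, 6.27 and 2.81 in DKO (log2 fold change -0.36, edgeR adjusted p = 0.34). KDM2B, which brings PCGF1 complexes to unmethylated CpG islands, had 7.85 to 9 and 9.74 to 10.6 FPKM, with all DKO values higher (0.27, edgeR adjusted p = 0.10, and 0.19 with adjusted p = 0.011 without DKO replicate 3). E4F1, a zinc finger factor reported to bind BMI1, had 11.5 to 13.9 FPKM in WT and 9.54, 8.82 and 14.4 in DKO (-0.17, edgeR adjusted p = 0.57, and -0.46 with adjusted p = 2.8e-06 without DKO replicate 3).

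Of the demethylases that remove H3K27 methylation, KDM6B was higher and KDM6A not called. KDM6B had 3.84, 4.44 and 4.14 FPKM in WT and 5.83, 5.24 and 7.86 in DKO (0.63, SE 0.19, edgeR adjusted p = 0.031), a call lost without WT replicate 1, 2 or 3 (adjusted p = 0.075 to 0.11). KDM6A had 6.71, 6.33 and 7.08 in WT and 5.59, 6.22 and 4.61 in DKO (-0.31, SE 0.14, edgeR adjusted p = 0.12). KDM6A was the more abundant transcript in WT, with 61.8 ± 2.66% of the summed FPKM of both, and held 46.7 ± 8.86% in DKO (exact two-sided permutation p = 0.1, the smallest possible), ranging from 37.0 to 54.3%.

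Among 6 genes of H3K9 methylation, 1 was higher, 1 lower and 4 not called. SUV39H1, which trimethylates H3K9 at pericentric repeats, had 14.1, 14.6 and 13.7 FPKM in WT and 18.7, 19.3 and 25.8 in DKO (0.62, SE 0.17, edgeR adjusted p = 0.024). EHMT1, which with EHMT2 forms the main H3K9 dimethylase, had 11.3, 12.4 and 11.6 in WT and 7.77, 7.55 and 9.01 in DKO (-0.52, SE 0.13, edgeR adjusted p = 0.013). Neither gene's groups overlapped. The call of SUV39H1 was lost without WT replicate 1, 2 or 3 (adjusted p = 0.075 to 0.091) and that of EHMT1 without WT replicate 2 or 3 (0.053 to 0.055).

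EHMT2 had 42.8, 43.3 and 39.4 FPKM in WT and 26.9, 27.3 and 37.4 in DKO, all below WT (-0.41, SE 0.17, edgeR adjusted p = 0.089). It was called lower without DKO replicate 3 (-0.62, edgeR adjusted p = 4.7e-15), in both limma fits (adjusted p = 0.039 and 0.040) and with no filter on low counts (edgeR adjusted p = 0.046). TRIM28, the corepressor that brings SETDB1 to KRAB zinc finger proteins, was the most abundant of the 48 in WT, with 245, 252 and 228 FPKM in WT and 166, 168 and 233 in DKO. DKO replicate 3 lay within the WT range and the other DKO samples below it (-0.30, edgeR adjusted p = 0.18, and -0.53 with adjusted p = 1.0e-15 without DKO replicate 3). SETDB1 had 9.52 to 10.2 FPKM in WT and 9.80 to 12.6 in DKO (0.20, edgeR adjusted p = 0.30). SUV39H2 had 12.7 to 15.4 in WT and 17.2, 16.6 and 9.77 in DKO (0.07, edgeR adjusted p = 0.81, and 0.25 with adjusted p = 0.0065 without DKO replicate 3).

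No HP1 gene was called. CBX1 (HP1 beta) had 70.0 to 77.2 FPKM in WT and 63.0 to 76.5 in DKO, and its log2 fold change of -0.03 (SE 0.10) stayed between -0.09 and -0.0015 when single samples were left out. CBX5 (HP1 alpha) had 23.6 to 24.5 in WT and 23.3, 25.3 and 16.5 in DKO (-0.12, edgeR adjusted p = 0.53). CBX3 (HP1 gamma), whose values stand above, was the most abundant HP1 transcript in WT with 64.0 ± 0.810% of the sum of the 3. Its share was 66.0 and 67.6% in DKO replicates 1 and 2 and 39.9% in DKO replicate 3. CBX3 was not called with all samples (-0.21, SE 0.41, edgeR adjusted p = 0.72), and without DKO replicate 3 it was slightly higher (0.18, edgeR adjusted p = 0.00042).

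Of the HUSH genes and the HUSH effector MORC2, only MORC2, an ATPase that compacts target chromatin, was called. It had 12.3, 12.3 and 12.6 FPKM in WT and 15.9, 16.02 and 17.4 in DKO, without overlap (0.45, SE 0.11, edgeR adjusted p = 0.014). This call was lost without WT replicate 1, 2 or 3 (adjusted p = 0.063 to 0.075). MPHOSPH8, the chromodomain subunit, had 16.7 to 18.0 FPKM in WT and 18.6, 18.7 and 10.95 in DKO. The scaffold gene TASOR had 15.97 to 18.0 and 18.9, 18.0 and 9.60, and PPHLN1 42.8 to 45.01 and 54.2, 52.4 and 36.7. These 3 had DKO replicate 3 below and DKO replicate 1 above all WT samples. Without DKO replicate 3, TASOR (0.16, edgeR adjusted p = 0.0057) and PPHLN1 (0.24, edgeR adjusted p = 0.00032) were higher.

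ATRX and DAXX deposit histone H3.3 at heterochromatin, and neither was called. ATRX had 7.41, 7.12 and 7.99 FPKM in WT and 9.29, 9.18 and 3.16 in DKO (-0.04, SE 0.36, edgeR adjusted p = 0.94). Its value without DKO replicate 3 was 0.30 (edgeR adjusted p = 5.8e-06), so the direction turned with that sample. DAXX had 42.8 to 44.7 in WT and 39.6, 39.9 and 48.8 in DKO (0.01, edgeR adjusted p = 0.96), and -0.14 without DKO replicate 3 (edgeR adjusted p = 0.015).

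DKO replicate 3 was read apart for each gene. On the log2 CPM scale (counts scaled to library size by TMM), 15 of the 48 genes, or 31.2%, were over 1.5-fold lower in it than in the mean of DKO replicates 1 and 2, against 20.8% of all genes tested. The opposite held for 2 genes, E4F1 and UHRF1, or 4.17% against 12.8%. The drop was deepest for PCGF5 (-1.98 on the log2 scale), CBX3 (-1.76), TET1 (-1.71), SUZ12 (-1.68) and ATRX (-1.46). RYBP, BMI1, MTF2, TASOR, MBD2, PCGF6, RNF2, MPHOSPH8, SUV39H2 and TET2 made up the rest, between -1.09 and -0.64. TET1 had only 17, 11 and 3 counts in the DKO libraries, so the size of its drop is uncertain. Counts of PCGF5, TASOR and SUV39H2 were not all whole. The median over the 48 was 0.00 and over all genes 0.08. Of the 8 genes whose call held in all fits, only MBD2 was among these 15, and the other 7 lay between 0.12 and 0.52. A drop in DKO replicate 3 widens the spread within DKO and makes a call less likely. This pattern therefore follows in part from how the 8 were selected.

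**Figure D5:**
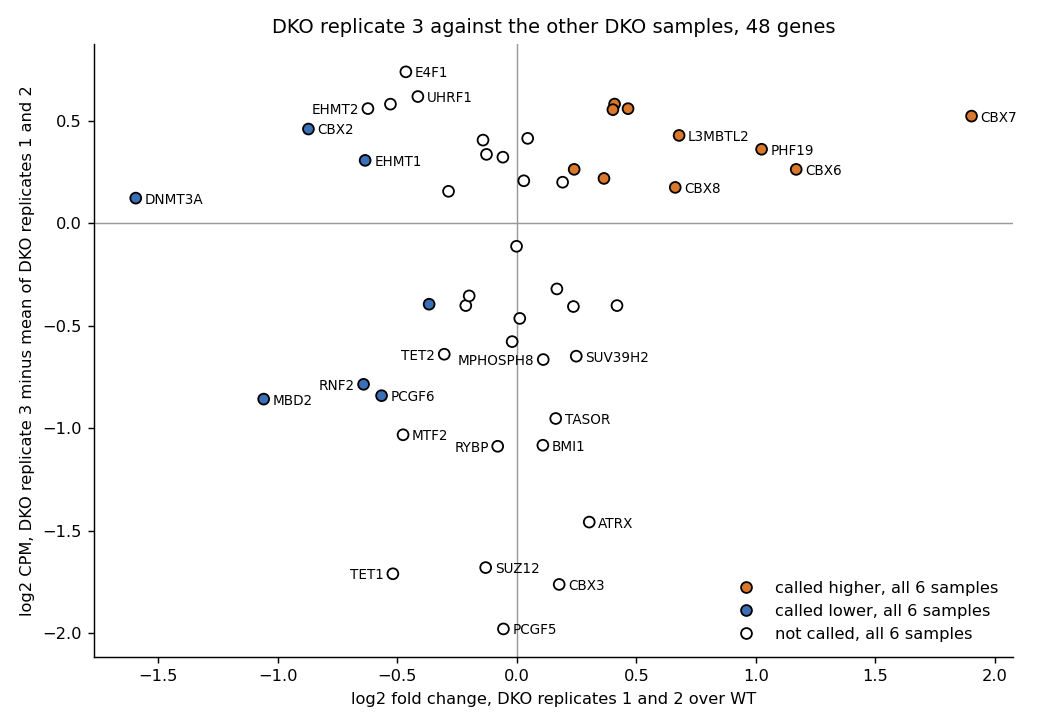
Log2 CPM of DKO replicate 3 minus the mean of DKO replicates 1 and 2 (y axis) against the log2 fold change of DKO replicates 1 and 2 over WT (x axis) for the 48 genes. PCGF5, CBX3, TET1, SUZ12 and ATRX lie lowest, while CBX6, CBX7, CBX8, PHF19 and DNMT3A lie above 0.

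The genes next to several called members lay on the same side of 0 as the member. For each gene, the 5 tested genes on either side were taken from the RefSeq order of assembly mChlSab1.0.hap1, which may not be the build the authors used. The 10 neighbours of MBD2 had a median log2 fold change of -1.52 (9 below 0), and 0.963% of tested genes had neighbours with a median as low. The neighbours of RNF2 had a median of -0.94 (8 of 10 below 0, 3.25% as low) and those of DNMT3A -0.56 (8 below 0, 9.99%). CBX6 and CBX7 stand close together on both sides of APOBEC3 genes, and the medians of their partly shared neighbours were 0.87 and 0.94 (9 of 10 above 0 for each, 2.19% and 1.53% as high). All 10 neighbours of L3MBTL2 were above 0 (median 0.52). CBX2 and CBX8 are adjacent and went in opposite directions, and the neighbours of PHF19 had a median of 0.02. Some members that were not called also had neighbours far from 0. CBX1, itself at -0.03, had a neighbour median of -1.34 (8 of 10 below 0, 1.22% as low). The medians were -0.61 for BMI1 (8.63% as low) and -0.60 for CBX3 (8.7%). For KDM2B the median was 0.57 (8.39% as high) and for CBX5, itself at -0.12, it was 0.64 (6.23%). Over the 16 called members with 10 such neighbours, the median of the neighbours had the member's sign for 14 (not for CBX2, with 0.33, or DNMT3B, with 0.12), against 72.3% of 5637 called genes in the whole table.

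Other genes of the same or related pathways were taken from lists of textbook membership. Of each of these pathway lists 38.7 to 60% was called, beside 45.5% of all genes. Of 47 further Polycomb genes tested, 11 were higher and 12 lower (48.9%), with a median log2 fold change of -0.06. MGA, EPOP and MAX, given above, had the smallest p-values. Of 31 further genes of DNA methylation, 6 were higher and 6 lower (38.7%, median -0.04). CDCA7L, a relative of the HELLS partner CDCA7, had 514 counts in WT and 1 in DKO, a ratio of 491 (exact 95% counting interval 87.8 to 19440). That count was in DKO replicate 3. GADD45B, a stress-response gene linked to DNA demethylation, fell from 126 ± 2.31 to 68.6 ± 4.25 FPKM (-0.82, SE 0.11, edgeR adjusted p = 0.0012).

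Of 48 further genes of H3K9 methylation and heterochromatin, 7 were higher and 13 lower (41.7%, median -0.23). The H3K9 methyltransferase gene PRDM16 rose from 0.113 ± 0.0322 to 1.32 ± 0.202 FPKM (3.65, SE 0.25). H2AFY2, which encodes a macroH2A histone, fell from 28.1 ± 0.716 to 9.16 ± 0.943 (-1.57, SE 0.13), and CDYL2, a chromodomain protein gene, from 2.95 ± 0.219 to 1.09 ± 0.0755 (-1.40, SE 0.13). Of 20 histone lysine demethylase genes, 5 were higher and 7 lower (60%, median -0.02). HR, an H3K9 demethylase gene of skin and hair, fell from 7.89 ± 0.335 to 0.360 ± 0.0361 FPKM (-4.40, SE 0.17), KDM5B from 4.45 ± 0.136 to 1.01 ± 0.105 (-2.1, SE 0.13), and PHF2 rose from 15.0 ± 0.0666 to 27.9 ± 1.84 (0.91, SE 0.09). No edgeR adjusted p among these 6 exceeded 0.00030.

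Of 43 trithorax, SWI/SNF and H3K36 methylation genes, many of which oppose Polycomb, 7 were higher and 11 lower (41.9%, median -0.08). SMARCD3 rose from 7.39 ± 0.415 to 27.02 ± 3.92 FPKM (1.91, SE 0.17), while PHF10 fell from 31.9 ± 1.43 to 13.8 ± 2.92 (-1.17, SE 0.15) and ARID1B from 7.54 ± 0.284 to 4.35 ± 0.192 (-0.75, SE 0.11), with edgeR adjusted p-values of at most 0.0015. DNMT1, UHRF1 and EZH2 are expressed mostly in dividing cells, so genes of S phase and mitosis were read beside them: of 53 tested, 9 were higher and 10 lower (35.8%, median -0.02), and their summed level was 4128 to 4246 FPKM in WT and 3973 to 4259 in DKO. CCNE1 fell from 37.7 ± 0.830 to 11.4 ± 0.697 FPKM (-1.69, SE 0.10, edgeR adjusted p = 3.2e-05), BRCA1 fell by 1.03 on the log2 scale (SE 0.12, edgeR adjusted p = 0.00059), and E2F2 had 688 counts in WT and 1 in DKO, a ratio of 658 (exact 95% counting interval 118 to 26010), with that count in DKO replicate 2.

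Genes known as targets of these systems in other cells were read in the same way. Of 37 HOX genes tested, 9 were higher and 24 lower (89.2%, median -1.42), with HOXA3 down from 12.6 ± 0.945 to 0.343 ± 0.0569 FPKM, HOXB9 from 18.4 ± 0.449 to 2.90 ± 0.0961 and HOXA2 from 4.90 ± 0.150 to 0.0333 ± 0.0153. Of 71 other developmental genes in the table that are known as Polycomb targets, 19 stayed under 0.1 FPKM in all 6 samples. Of the 46 that passed the filter on low counts, 20 were higher and 16 lower (78.3%, median 0.25). Beside both lists, 45.5% of all genes tested were called. Genes silent in both genotypes fail the filter, so these shares do not cover them. BARX1 rose from 0.913 ± 0.285 to 157.5 ± 5.93 FPKM, while LHX1 fell from 33.9 ± 2.04 to 0.0900 ± 0.0557 and DLX2 from 4.22 ± 0.354 to 0.330 ± 0.105. No edgeR adjusted p among these 6 exceeded 3.5e-05. Whether the levels of the Polycomb genes bear on these changes was not tested.

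Of 34 germline genes in the table, 8 passed the filter on low counts. Of these 8, 1 was higher and 2 lower (37.5%, median -0.63), beside 45.5% of all genes called. The one higher was ZCWPW1, a reader of histone marks at meiotic recombination sites, from 0.290 ± 0.05 to 10.2 ± 0.535 FPKM (5.17, SE 0.19, edgeR adjusted p = 5.8e-06). Of the 34, 15 stayed under 0.1 FPKM in all 6 samples. Of 28 imprinted genes tested, 7 were higher and 11 lower (64.3%, median -0.14). PEG10 fell from 69.9 ± 1.55 to 1.03 ± 0.289 FPKM (-6.05, SE 0.21, edgeR adjusted p = 5.3e-06) and ATP10A rose from 0.0633 ± 0.0153 to 3.31 ± 0.00577 (5.77, SE 0.20, edgeR adjusted p = 5.3e-06). IGF2 had 2 counts in WT and 224 in DKO, a ratio of 117 (exact 95% counting interval 32.1 to 973).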

How the data were processed

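RNA of 6 COS7 samples was analysed. Per the labels' protocols, total RNA was extracted with TRIzol and libraries were made with a BGI mRNA kit. The authors deposited one table, per the file headers with estimated counts and FPKM per gene and sample. Aligners were HISAT and Bowtie2, per the submitters' processing notes, without versions. The read counter is not given in the sources used here, nor is the genome build. Another 9 columns belong to 3 samples that are not analysed here. Counts of 4 of the 48 genes (PCGF5, SUV39H2, TASOR and PPHLN1) were not all whole, as happens when reads are divided among matching genes, so their values are less certain.

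Estimated counts were rounded and fitted with edgeR 4.0.16 in R 4.3.3 (TMM, filter with a minimum count of 10, quasi-likelihood test, Benjamini-Hochberg adjustment over 13094 genes). SE is the size of the log2 fold change over the root of F. Levels are the authors' deposited FPKM ± SD (n = 3). Bounds use a floor of 3 counts per library. Alternatives were each sample left out, a replicate block, DESeq2 1.42.0 and its size factors, no filter, limma 3.58.1 on log2(FPKM + 1) and log2(FPKM + 0.1) at a mean of at least 0.5 FPKM, and a threshold of 0.01. The fits were tested on simulated data with few changed genes and no sample that stood apart. That setting differs from these data, so the test does not cover them. Of the table's genes, 92.7% matched the RefSeq annotation, which was used only for gene order. The members and lists were chosen with earlier results of these data known. Members called at 1.5-fold or more, and their paralogues, are given by sample. From each list, up to 3 called genes with the smallest p and at least 1 FPKM are named. Some genes that this rule would name are not reported here.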

Additional observations from a re-analysis of the deposited data

How the results depend on the processing

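The count of genes called over the whole table was 5959. It stayed between 4485 and 6337 under other scaling, filters, tools and a replicate block, and was 3902 at an adjusted p below 0.01. Leaving out single samples gave 4266 to 9880 genes over the table, 5 to 18 members higher and 3 to 18 members lower, with the highest counts without DKO replicate 3. At an adjusted p below 0.01, 5 members were higher and 2 lower. With the replicate number as a block, 5 members were higher and 4 lower, and 4485 genes were called. The calls lost in that fit were those of DNMT1, DNMT3B, PCGF1, PCGF6, KDM6B, SUV39H1, EHMT1 and MORC2 (edgeR adjusted p = 0.051 to 0.094). Deviations of samples with the same number had correlations of 0.02, -0.28 and -0.29. DKO replicate 3 dominates the DKO deviations: WT replicate 2 gave -0.26 and -0.28 with DKO replicates 1 and 2 and 0.31 with DKO replicate 3. These correlations therefore cannot show whether the number pairs samples. The fits with other scaling, no filter, DESeq2 and limma gave 9 to 10 members higher and 7 to 8 lower. No called member turned direction in any of the 12 fits. Of the members not called, EZH1 was -0.0261 and -0.0335 in the limma fits with pseudocounts of 1 and 0.1, and DAXX was -0.012 with DESeq2 size factors, -0.0299 without a filter, -0.0144 in DESeq2, -0.0472 and -0.0483 in the limma fits and -0.0020 with the replicate block. With single samples left out, the log2 fold change crossed 0 for 11 genes not called: EZH1 (-0.0586 to 0.15), EZH2 (-0.0153 to 0.17), RING1 (-0.13 to 0.0467), BMI1 (-0.35 to 0.11), SUV39H2 (-0.0541 to 0.25), CBX3 (-0.47 to 0.18), CBX5 (-0.24 to 0.012), MPHOSPH8 (-0.19 to 0.11), TASOR (-0.26 to 0.16), ATRX (-0.26 to 0.30) and DAXX (-0.14 to 0.071). Paralogue shares (DKO minus WT, percentage points) crossed 0 for EZH1 (-1.31 to 0.417, and 0.0915 from counts in place of FPKM), BMI1 (-3.68 to 1.34), EHMT1 (-1.38 to 0.103), CBX1 (-2.15 to 9.72), CBX3 (-11.04 to 2.81) and CBX5 (-0.655 to 1.61). Counts of 20 to 22 per WT library limit TET1, which limma did not test. The cause of these changes was not tested.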
